A study of Mus musculus with 12 samples.

Results

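The 10 genes described here are receptors, ligands and transcriptional effectors of the Notch pathway: the receptors *Notch1*, *Notch2* and *Notch3*, the ligands *Dll1*, *Dll3* and *Jag1*, and the effectors *Hes1*, *Hes5*, *Hes6* and *Hey1*. They were taken by symbol from the 55471 genes of the count matrix, of which 55230 had a mouse symbol, and all 10 were among the 19578 genes that passed the filter on low counts. The data are RNA-seq counts from 12 libraries of wild-type (genotype WT) mouse primary hippocampal neurons, prepared per the study's methods from CD1 embryos of mixed sex. Of these, 6 libraries came from cultures given control gapmers, which have no known target, and 6 from cultures given NeuID targeting gapmers (*Neuid* KD), in both cases at day 7 in vitro (DIV) with RNA isolated at DIV 10. Gapmers are single-stranded antisense oligonucleotides that direct RNase H to a nuclear RNA, and per the study's methods both kinds were delivered in lipid nanoparticles. Those methods list a single targeting and a single control sequence, and report no other mouse transcript fully complementary to the targeting one. Loss of *Neuid* and any other effect of that sequence cannot be told apart in these libraries. No untreated culture entered the comparison, and nothing in the labels says that the libraries of a group came from separate cultures, so the p-values below measure the spread between these libraries only.

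Notch signalling acts between touching cells. A Delta-like or Jagged ligand on the surface of a cell binds a Notch receptor on its neighbour, the receptor is cut by an ADAM protease and then by gamma-secretase, and its intracellular domain moves to the nucleus, where it joins the DNA-binding protein RBPJ and a mastermind-like coactivator to switch on target genes. The classical targets are bHLH repressors of the Hes and Hey families, which in the developing brain hold down proneural genes, keep progenitors undifferentiated and later favour glial over neuronal fates.

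Total counts per library lay between 18002585 and 30914714 in the control group and between 11152556 and 30573480 in the *Neuid* KD group. The target transcript, *Gm10419* (ENSMUSG00000072769, chromosome 5, 108367769 to 108378239, GRCm38), fell from 28.4 ± 2.03 to 8.05 ± 1.13 CPM (counts scaled to a common library total; values are mean ± SD with n = 6 in each group throughout), and its log2 fold change was -1.81 (SE 0.0845). Reads on 1503 chemosensory receptor genes, which neurons of the hippocampus are not known to use and which serve here as a gauge of reads spread over the genome, summed to 24.8 to 629 CPM in the control libraries and 25.5 to 583 CPM in the *Neuid* KD libraries. This sum reached 100 CPM in 4 control and 3 *Neuid* KD libraries. The largest share of a member's reads in any library that such a background would account for, per length, was 16.5% for *Dll3*, 12.4% for *Notch3*, 9.26% for *Hes5* and under 6% for each of the other 7. This gauge may be too low for other genes. Some listed markers spread widely over the control libraries, such as *Mobp* (6849 bases of exon, 0.03 to 3.15 CPM) and *Cdh5* (4203 bases, 0 to 2.53 CPM). Whether background took a larger share of the members' reads was not tested.

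Of the 10 members, 8 were higher after *Neuid* KD and none was lower, with edgeR's quasi-likelihood test at a Benjamini-Hochberg adjusted p under 0.05 over all tested genes (called, below). None was lower at an unadjusted p under 0.05 or with DESeq2 either. Among all tested genes, 6.31% were called higher and 2.42% lower. With the study's added requirement of a log2 fold change beyond 0.5, 5 members were higher (*Notch1*, *Notch3*, *Dll1*, *Hes1* and *Hes5*) and none lower, against 2.44% and 0.792% of all tested genes. In 7 members all 6 *Neuid* KD libraries exceeded all 6 control libraries, and in none were they all below, which held for 4.13% and 1.57% of tested genes. The median log2 fold change was 0.49 over the members, with a range of -0.01 to 1.69, and -0.03 over all tested genes. All 3 receptors, 1 of 3 ligands and all 4 effectors were called.

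**Figure D1:**
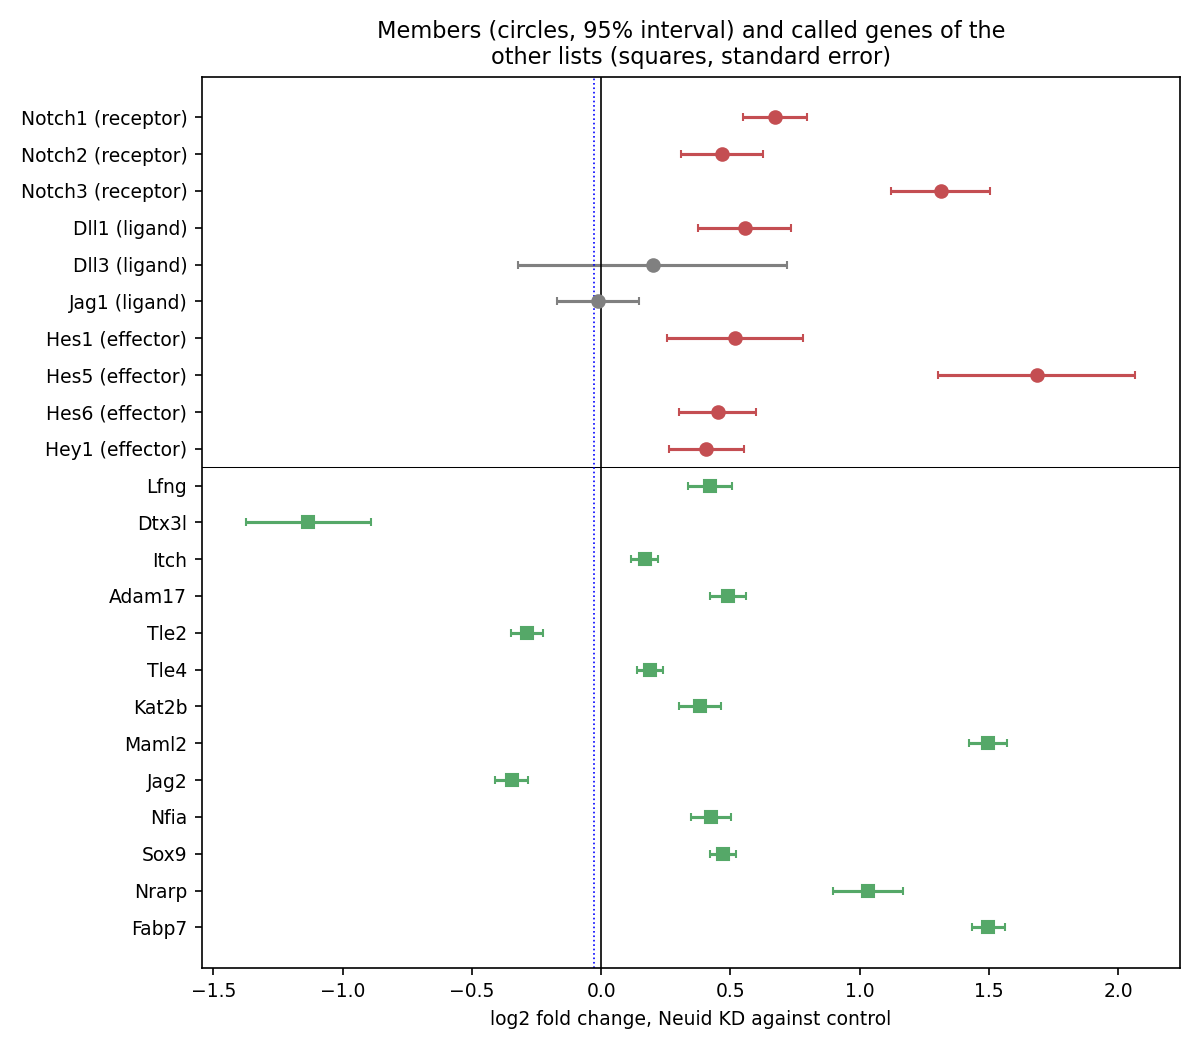
Log2 fold change (*Neuid* KD against control, 6 libraries each) on the horizontal axis for the 10 members (circles with the 95% interval; red called higher, grey not called) and for the called genes of the other Notch pathway lists (green squares with the standard error); the dotted line marks the median of all tested genes, -0.03. *Hes5* (1.69) and *Notch3* (1.31) lie farthest to the right among the members, and the intervals of *Dll3* and *Jag1* cross 0.

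The receptors rose to different extents. *Notch1* (ENSMUSG00000026923, chromosome 2, 26457903 to 26516663, minus strand) is the receptor studied most in neural progenitors, and it had the highest CPM of the members. Its control libraries ran from 52.2 to 59.9 CPM with a median of 55.2, and its *Neuid* KD libraries from 74.4 to 94.4 CPM with a median of 91.4. The groups did not overlap, although replicate 1 of the *Neuid* KD group lay below the other 5. That library had the smallest total count of all libraries and the highest chemosensory sum of its group. The fold was 1.59 (95% interval 1.46 to 1.74, log2 fold change 0.67, SE 0.0580, edgeR adjusted p = 3.05e-07).

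*Notch2* (ENSMUSG00000027878, chromosome 3, 98013527 to 98150361, plus strand), a receptor of radial glia and of many tissues outside the brain, gave 42.2 to 49.6 CPM in the control group with a median of 43.3. In the *Neuid* KD group it gave 46.0 to 65.9 CPM with a median of 64.5. The groups overlapped through a single library on each side: replicate 1 of the *Neuid* KD group at 46.0 CPM lay below replicate 2 of the control group at 49.6 CPM, and the other 5 *Neuid* KD libraries were all above 60 CPM. The fold was 1.38 (95% interval 1.24 to 1.54, log2 fold change 0.47, SE 0.0752, edgeR adjusted p = 0.000394), and without that *Neuid* KD library the log2 fold change was 0.49.

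*Notch3* (ENSMUSG00000038146, chromosome 17, 32120820 to 32166852, minus strand), best known as the receptor of vascular mural cells and also found in glial progenitors, had the lowest level of the receptors and the largest rise. Its control libraries spanned 5.64 to 8.24 CPM with a median of 6.87, and its *Neuid* KD libraries 15.6 to 18.7 CPM with a median of 16.6. The lowest *Neuid* KD library thus stood well clear of the highest control library. The fold was 2.49 (95% interval 2.18 to 2.84, log2 fold change 1.31, SE 0.0904, edgeR adjusted p = 1.82e-08). The summed level of mural cell markers was 13.8 to 29.9 CPM in control and 14.5 to 31.8 CPM in *Neuid* KD libraries, and none of the 7 was called. Of these markers, *Kcnj8*, *Abcc9* and *Tagln* had a mean under 1 CPM. Whether mural cells had a part in the rise of *Notch3* was not tested. *Notch3* ranked in percentile 99.6 of all tested log2 fold changes.

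**Figure D2:**
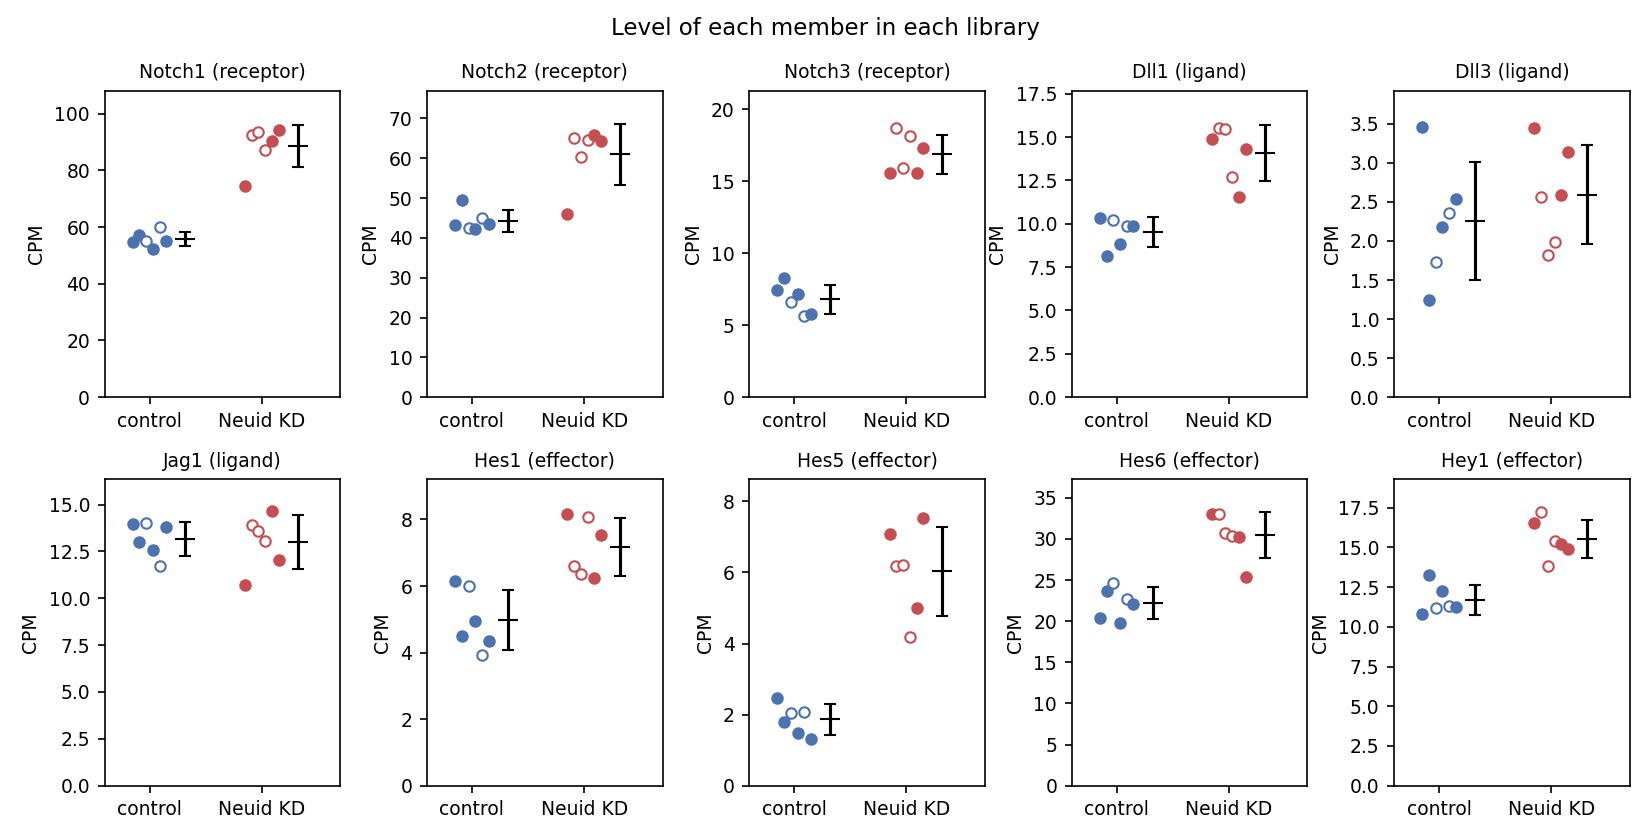
CPM (vertical axis, each panel with its own scale from 0) of each member in the 6 control (blue) and 6 *Neuid* KD (red) libraries, with the mean and SD in black; filled points are libraries whose chemosensory reads reached 100 CPM and open points the others. The groups are apart in 7 panels, *Notch2* overlaps through its lowest *Neuid* KD library (46.0 CPM), and *Dll3* and *Jag1* overlap fully.

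Among the ligands, *Dll1* alone was called. *Dll1* (ENSMUSG00000014773, chromosome 17, 15367354 to 15376872, minus strand) is the Delta ligand carried by cells leaving the progenitor state, where proneural factors drive it. Its control libraries ran from 8.16 to 10.3 CPM with a median of 9.85, and its *Neuid* KD libraries from 11.5 to 15.5 CPM with a median of 14.6. The groups were apart, with a fold of 1.47 (95% interval 1.30 to 1.67, log2 fold change 0.56, SE 0.0854, edgeR adjusted p = 0.000244).

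*Jag1* (ENSMUSG00000027276, chromosome 2, 137081456 to 137116644, minus strand), a Jagged ligand that acts in neural stem cell niches, showed 11.75 to 14.0 CPM in the control group with a median of 13.4 and 10.7 to 14.7 CPM after *Neuid* KD with a median of 13.3. The *Neuid* KD libraries spread to both sides of the control libraries. The fold was 0.992 with a 95% interval of 0.889 to 1.11 (log2 fold change -0.01, SE 0.0746, edgeR adjusted p = 0.962), so that a rise of the size measured for *Dll1* lay outside the interval. The sign of this value was positive under some alternative settings.

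*Dll3* (ENSMUSG00000003436, chromosome 7, 28293553 to 28302238, minus strand) is the divergent Delta protein that stays inside the cell and dampens signalling there. It had the fewest reads of the ligands, 29 to 67 per control library and 39 to 66 per *Neuid* KD library. The levels were 1.24 to 3.46 CPM with a median of 2.27 in control and 1.82 to 3.45 CPM with a median of 2.57 in *Neuid* KD libraries. The fold of 1.15 had a 95% interval of 0.801 to 1.65 (log2 fold change 0.20, SE 0.246, edgeR adjusted p = 0.787), and a change within it could not be detected at this depth.

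All 4 effectors were called, and *Hes5* had the largest rise of the members. *Hes5* (ENSMUSG00000048001, chromosome 4, 154960923 to 154962371, plus strand), a bHLH repressor and direct target of the cleaved receptor, is a standard reporter of Notch activity in neural stem cells. Its control libraries spanned 1.31 to 2.48 CPM with a median of 1.91, from 29 to 61 reads each, and its *Neuid* KD libraries 4.20 to 7.53 CPM with a median of 6.20, from 84 to 159 reads each. The groups were far apart, and the fold was 3.22 (95% interval 2.47 to 4.19, log2 fold change 1.69, SE 0.180, edgeR adjusted p = 4.38e-06). Its log2 fold change was in percentile 99.8 of all tested genes.

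*Hes1* (ENSMUSG00000022528, chromosome 16, 30064384 to 30067796, plus strand), the repressor that oscillates in neural progenitors and also answers to signals other than Notch, gave 3.93 to 6.14 CPM in control libraries and 6.23 to 8.17 CPM in *Neuid* KD libraries. The medians were 4.72 and 7.07 CPM. The highest control library and the lowest *Neuid* KD library lay close together without overlap. The log2 fold change was 0.52 (SE 0.125, fold 1.43 with a 95% interval of 1.19 to 1.72, edgeR adjusted p = 0.0123), and *Hes1* was the only called member whose adjusted p rose above 0.05 under an alternative setting, for example without replicate 4 of the *Neuid* KD group (adjusted p = 0.0521) or without replicate 6 (adjusted p = 0.0524).

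*Hes6* (ENSMUSG00000067071, chromosome 1, 91411483 to 91414038, minus strand) differs in function from the other Hes proteins, since it antagonises Hes1 and promotes neuronal differentiation. It ran from 19.8 to 24.7 CPM in the control group with a median of 22.4 and from 25.4 to 33.0 CPM after *Neuid* KD with a median of 30.5. The groups were apart by a small margin, set by replicate 6 of the *Neuid* KD group, and the fold was 1.37 (95% interval 1.23 to 1.51, log2 fold change 0.45, SE 0.0700, edgeR adjusted p = 0.000276). *Hey1* (ENSMUSG00000040289, chromosome 3, 8663359 to 8667256, minus strand), a Hes-related repressor that can pair with Hes proteins, gave 10.8 to 13.3 CPM with a median of 11.3 in control and 13.8 to 17.2 CPM with a median of 15.3 in *Neuid* KD libraries. It too was apart between groups, with the smallest fold of the called members, 1.33 (95% interval 1.20 to 1.47, log2 fold change 0.41, SE 0.0681, edgeR adjusted p = 0.000582).

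The promoter windows of *Hes5* and *Notch3* are shown because these genes had the largest rises of the effectors and of the receptors. RBPJ, the DNA-binding partner of the cleaved receptor, recognises a core written here as TGGGAA, and capitals mark each match to it on either strand. The windows run from 250 bases before to 50 bases after the RefSeq start site on GRCm38.p6, written 5′ to 3′ along the gene, *Hes5* from chr4:154960673-154960972 (plus strand) and *Notch3* from chr17:32166841-32167140 (minus strand).
Hes5: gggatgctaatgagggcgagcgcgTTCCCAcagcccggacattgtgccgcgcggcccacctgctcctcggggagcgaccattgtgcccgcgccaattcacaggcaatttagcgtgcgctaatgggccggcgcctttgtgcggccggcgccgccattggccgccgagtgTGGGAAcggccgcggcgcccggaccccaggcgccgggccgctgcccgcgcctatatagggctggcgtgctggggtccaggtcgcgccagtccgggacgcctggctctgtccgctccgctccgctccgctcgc
Notch3: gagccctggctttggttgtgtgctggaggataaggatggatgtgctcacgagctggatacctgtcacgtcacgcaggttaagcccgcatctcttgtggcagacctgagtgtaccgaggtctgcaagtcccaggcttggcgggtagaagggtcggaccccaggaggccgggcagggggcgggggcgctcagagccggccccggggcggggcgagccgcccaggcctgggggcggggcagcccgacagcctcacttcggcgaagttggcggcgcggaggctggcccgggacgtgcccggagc

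RefSeq windows were matched for 8 of the 10 members, all but *Hes1* and *Hey1*, with 10 windows in all. Searched on both strands, TGGGAA was in the window of *Hes5* only, with 2 matches on opposite strands, at positions -226 and -82 counted from the start site. Both also matched the longer form GTGGGAA, which contains the core. Of all 32851 promoter windows of the same length, 25.6% held TGGGAA and 6.38% held GTGGGAA. The letters CACGCG, a site bound by Hes repressors, were in the windows of *Notch2*, *Jag1* and the second start of *Dll1* (9.27% of all windows), and CACNAG, the N-box, in those of *Notch1*, *Notch2*, *Notch3* and the second starts of *Dll1* and *Hes6* (42.5% of all windows). A match describes the letters of the window and is not a measured binding site. The windows of *Dll3* and of the first starts of *Dll1* and *Hes6* held none of these letters.

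**Figure D3:**
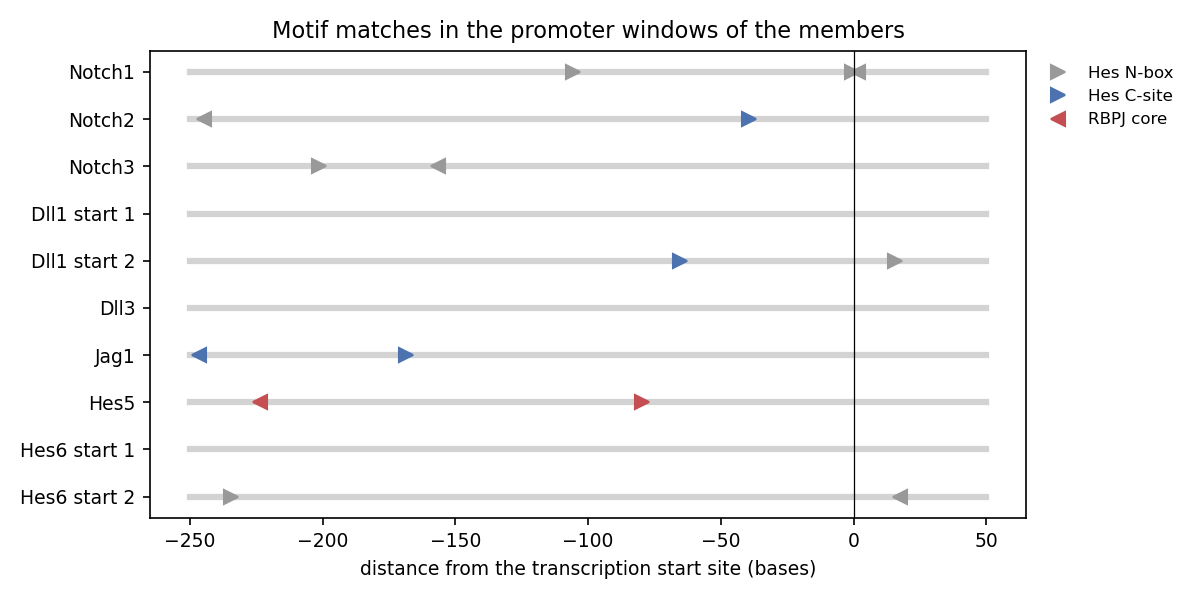
Matches to 3 motifs (triangles pointing along the strand matched: red RBPJ core, blue Hes C-site CACGCG, grey N-box CACNAG) in the 10 promoter windows of the 8 members with a RefSeq entry, by distance from the transcription start site in bases on the horizontal axis. The RBPJ core appears in the *Hes5* row alone, at positions -226 and -82.

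Compared per kb of exon, which allows levels to be set side by side between genes, *Hes6* was the most abundant member in both groups, with 12.3 ± 1.05 CPM per kb in control and 16.8 ± 1.53 CPM per kb in *Neuid* KD libraries. The length is that of all annotated exons merged, 14232 bases for *Notch1* and 10782 for *Notch2*, and not of the transcript in use. The order of close genes and the shares below therefore depend on the annotation. In control libraries it was followed by *Notch2* (4.11 ± 0.257), *Notch1* (3.92 ± 0.182) and *Hey1* (3.58 ± 0.281 CPM per kb), whose ranges over the libraries overlapped from each gene to the next. *Hes1* (2.44 ± 0.448), *Jag1* (2.26 ± 0.156) and *Dll1* (2.26 ± 0.202 CPM per kb) formed the next overlapping run. *Hes5* (1.37 ± 0.313), *Notch3* (0.841 ± 0.125) and *Dll3* (0.790 ± 0.265 CPM per kb) were the lowest, again overlapping from each to the next. Ranges of neighbours in this order were apart between *Hes6* and *Notch2*, between *Hey1* and *Hes1*, and between *Dll1* and *Hes5*.

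After *Neuid* KD the order per kb changed. *Hes5* moved from rank 8 to rank 5 with 4.43 ± 0.918 CPM per kb, between *Hey1* (4.75 ± 0.366) and *Hes1* (3.52 ± 0.428), and overlapped with both. *Notch1* (6.23 ± 0.523) stood ahead of *Notch2* (5.66 ± 0.708 CPM per kb), with overlapping ranges. *Dll1* (3.34 ± 0.386) was now apart from *Jag1* (2.23 ± 0.246), *Notch3* reached 2.08 ± 0.169, and *Dll3* stayed last with 0.910 ± 0.221 CPM per kb.

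**Figure D4:**
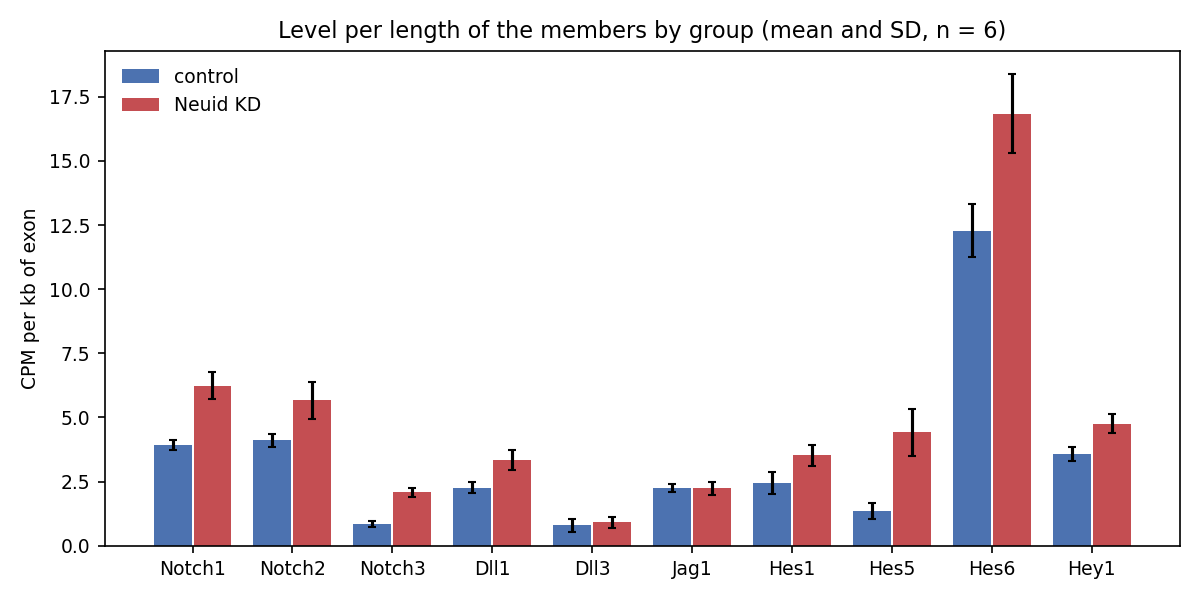
CPM per kb of exon (vertical axis, from 0) of the 10 members in control (blue) and *Neuid* KD (red) libraries; bars are means and error bars the SD over 6 libraries. *Hes6* is the tallest in both groups, and *Hes5* moves from 1.37 to 4.43 CPM per kb.

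The share of each member in the summed level of its role is described without a test, since the shares of a role sum to the whole. The 3 receptors summed to 8.87 ± 0.432 CPM per kb in control and 14.0 ± 1.28 CPM per kb in *Neuid* KD libraries. The share of *Notch3* in that sum was 9.47% ± 1.25 in control and 15.0% ± 1.28 in *Neuid* KD libraries, with no overlap. That of *Notch2* was 46.3% ± 0.825 and 40.4% ± 1.80, also with no overlap, and that of *Notch1* was 44.2% ± 1.60 and 44.6% ± 1.39. In the effector sum, which was 19.7 ± 1.23 and 29.5 ± 1.91 CPM per kb, the share of *Hes5* was 6.94% ± 1.50 in control and 15.0% ± 3.06 in *Neuid* KD libraries, without overlap. *Hes6* held 62.4% ± 2.76 and 57.0% ± 3.39 of that sum, with overlapping ranges. The ligands summed to 5.32 ± 0.501 and 6.48 ± 0.365 CPM per kb, of which *Dll1* held 42.6% ± 1.82 and 51.4% ± 3.80 and *Jag1* 42.8% ± 3.48 and 34.6% ± 4.57, each with overlapping ranges.

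Since the libraries differed in the level of genome-wide background, the members were also compared among libraries of like background. Among those whose chemosensory reads reached 100 CPM (4 control, 3 *Neuid* KD) and among those under it (2 control, 3 *Neuid* KD), 7 members were called in each case, the same 8 less *Hes1*. Of all genes tested in those fits, 2.75% and 6.28% were called higher. The log2 fold change of *Notch1* was 0.67 (SE 0.0979) in the first set and 0.63 (SE 0.0553) in the second. For *Notch3* it was 1.19 (SE 0.126) and 1.48 (SE 0.132), and for *Hes5* 1.90 (SE 0.248) and 1.39 (SE 0.232). These pairs of values were not tested against each other. *Hes1* was apart between groups in both sets, with log2 fold changes of 0.56 (SE 0.173, edgeR adjusted p = 0.0609) and 0.45 (SE 0.184, edgeR adjusted p = 0.131). Subtracting the reads expected from the chemosensory gauge moved the mean level of each of the 10 members, in each group, by less than 1 SD. That gauge may be too low for these genes.

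**Figure D5:**
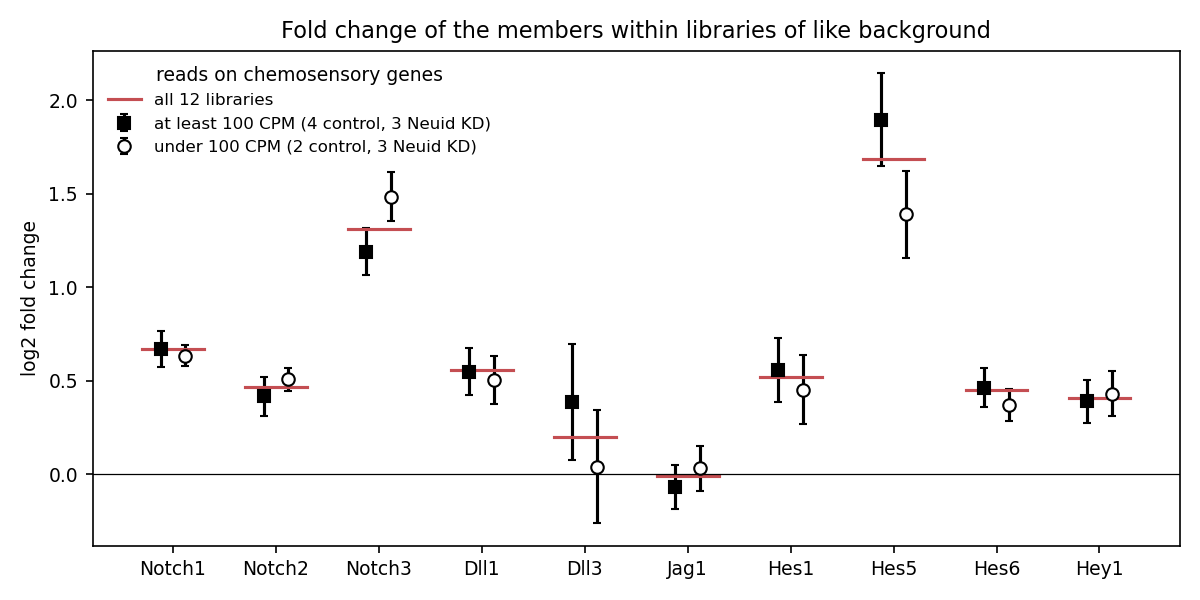
Log2 fold change (vertical axis, *Neuid* KD against control) of each member with its standard error within libraries whose chemosensory reads reached 100 CPM (filled squares) or stayed under it (open circles); the red line is the value over all 12 libraries. The 8 called members are above 0 in both sets, *Dll3* lies at 0.39 and 0.04, and *Jag1* at -0.07 and 0.03.

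Of 60 further Notch pathway genes grouped by role, 57 were tested, 10 were called higher and 3 lower, and their median log2 fold change was 0.02. Of all tested genes, 6.31% were called higher and 2.42% lower. Among the further receptors and ligands, 6 of 6 were tested and only *Jag2*, the second Jagged ligand, was called. It fell from 30.8 ± 2.54 to 24.2 ± 1.57 CPM (log2 fold change -0.35, SE 0.0629, edgeR adjusted p = 0.00127) with the groups apart, the opposite direction to *Dll1*. Among 10 tested genes of receptor processing, the metalloprotease gene *Adam17* rose from 13.0 ± 0.925 to 18.3 ± 1.67 CPM (log2 fold change 0.49, edgeR adjusted p = 0.000122), while *Adam10*, the main Notch sheddase, had 89.5 ± 7.39 and 89.7 ± 7.32 CPM. The gamma-secretase genes *Psen2*, *Ncstn*, *Aph1a*, *Aph1b*, *Aph1c* and *Psenen* were not called. Of 4 tested glycosylation genes, *Lfng*, the Fringe enzyme that tunes receptors towards Delta ligands, rose from 8.34 ± 1.06 to 11.2 ± 0.807 CPM (log2 fold change 0.42, edgeR adjusted p = 0.00301).

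Among 13 tested genes of ligand and receptor trafficking, the ubiquitin ligase gene *Itch* rose from 59.8 ± 3.69 to 67.2 ± 3.17 CPM (log2 fold change 0.17, edgeR adjusted p = 0.0498). *Dtx3l*, a Deltex-family ligase that interferon also induces, fell from 6.10 ± 1.14 to 2.77 ± 1.26 CPM (log2 fold change -1.13, edgeR adjusted p = 0.00488), and both genes had overlapping groups. In the transcription complex and its corepressors, 17 genes were tested, and the coactivator *Maml2* had the largest rise, from 12.0 ± 1.18 to 33.9 ± 2.80 CPM (log2 fold change 1.50, SE 0.0734, edgeR adjusted p = 2.18e-10). *Maml1* and *Maml3*, its relatives, were not called, with log2 fold changes of 0.32 and 0.11. *Rbpj* itself was at 6.00 ± 1.19 and 5.85 ± 0.943 CPM (log2 fold change -0.04, edgeR adjusted p = 0.931). The acetyltransferase gene *Kat2b* rose with a log2 fold change of 0.38, the Groucho corepressor *Tle4* with 0.19, and *Tle2* of the same family fell by 0.29 on the log2 scale.

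Of 7 tested genes among the further targets, 4 were called higher and none lower, against 6.31% and 2.42% of all tested genes. *Nrarp*, a direct target that feeds back on the cleaved receptor, rose from 4.04 ± 0.506 to 8.36 ± 1.75 CPM (log2 fold change 1.03, SE 0.135, edgeR adjusted p = 4.28e-05) with the groups apart. *Fabp7*, the lipid-binding protein of radial glia, rose from 257 ± 22.5 to 727 ± 49.9 CPM (log2 fold change 1.50, edgeR adjusted p = 4.88e-11). The gliogenic factors *Sox9* and *Nfia* rose with log2 fold changes of 0.47 and 0.43. The remaining Hes and Hey genes tested, *Hes7*, *Hey2* and *Heyl*, had log2 fold changes of -0.83, -0.38 and -0.41 and were not called, each with under 3 CPM in both groups.

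Several cell types use these genes, and in bulk RNA fewer cells of a type and less RNA per cell cannot be told apart. Neuronal markers were abundant, and the ranges of the groups overlapped: the 9 markers summed to 5763 to 6787 CPM in control and 5672 to 6766 CPM in *Neuid* KD libraries, and none was called. Astrocyte markers moved with the members, with sums of 1674 to 2110 CPM in control and 3034 to 3692 CPM in *Neuid* KD libraries and 9 of 9 tested markers called higher. The 8 markers of oligodendrocyte precursors summed to 495 to 653 CPM and 1286 to 1512 CPM, with *Olig1*, *Olig2*, *Ptprz1* and *Vcan* called higher and *Sox10*, *Pdgfra*, *Cspg4* and *Gpr17* not called. The markers of neural progenitors summed to 800 to 888 CPM and 649 to 714 CPM. Of these, *Sox2*, *Nes* and *Pax6* were called higher, *Vim* and *Hopx* lower, and the proliferation markers *Mki67* and *Top2a* not called. *Vim* made up most of the control sum and fell from 555 ± 29.1 to 332 ± 8.63 CPM, so the sum does not describe the markers as a set. *Sox9* is counted among both the astrocyte markers and the further targets. The part of these cell types in the rise of the members was not tested. Summed microglial, endothelial, mural, fibroblast and ependymal markers had overlapping ranges in both groups, with none called, and the myelin marker *Mbp* was called lower. No listed marker was at 0 in all libraries.

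The tested genes outside the members whose log2 CPM ran most closely with *Hes5* over the 12 libraries were *Selenop* (Pearson r = 0.969), *Cabp1* (r = 0.968) and *Sox8* (r = 0.966). For *Hes1* they were *Rtkn* (r = 0.922), *Kat2b* (r = 0.910) and *Plod1* (r = 0.905). The libraries fall into the 2 gapmer groups, which differ in both *Hes5* and *Hes1*, so these coefficients describe a pattern that includes that difference. All 6 genes were called higher.

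Overlapping annotation touched 5 members. *Notch1*, *Notch3* and *Hes5* overlap genes on the opposite strand that held under 1 CPM in either group, and *Dll1* overlaps *A930024N18Rik*, not analysed here. *Notch2* overlaps *Gm42819* (3.82 and 3.43 CPM) and *Gm42820* on its own strand. The library kit marks strand, but the strand setting of the counting is not given in the sources used here.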

How the data were processed

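Libraries were made from total RNA with a stranded total RNA kit for low input. Per the study's methods and the labels, the authors aligned reads with STAR to mm10 (GRCm38) and counted them per Ensembl gene with featureCounts; the deposited values are raw counts, with no normalization. The annotation release they counted on is not given in the sources used here. Symbols and positions came from GENCODE annotation of GRCm38, promoters from RefSeq.

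Genes were filtered with filterByExpr, scaled with TMM and tested with edgeR 4.0.16 (limma 3.58.1, R 4.3.3) by the quasi-likelihood test, *Neuid* KD against control, 6 libraries each, with no covariate. Standard errors are the log2 fold change divided by the square root of F. CPM used TMM-scaled totals, and CPM per kb the length of all annotated exons merged. All members, the target, each called gene of the pathway lists and, where no gene of a list was called, its lowest adjusted p were to be named; the uncalled pathway genes given with values were picked after their values were seen. Members and lists were chosen with earlier results of these data known, so a member's call is no independent support. No libraries held identical values. Alternatives were other scalings, DESeq2 1.42.0, 2 RUVs factors, filters, background, GC and length, thinning, a replicate block and leaving out each library. The tests were tried on simulated data. Gapmer sequences are not printed, and some listed genes are not reported here.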

Additional observations from a re-analysis of the deposited data

Results flagged for a closer look

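Among 22 groups of 6 libraries (the 10 members and the target, in each gapmer group), 4 held a single library set apart from the rest by Dixon's gap criterion, where chance flags about 1 in 20 groups. Replicate 1 of the *Neuid* KD group was low for *Notch1*, at 74.4 CPM against 87.3 to 94.4 CPM in the other 5, and for *Notch2*, at 46.0 CPM against 60.3 to 65.9 CPM. This library had the smallest total count and also the highest chemosensory sum of its group (583 CPM). Without it the log2 fold changes were 0.68 for *Notch1* and 0.49 for *Notch2*, both called. Replicate 2 of the control group was high for *Notch2*, at 49.6 CPM against 42.2 to 45.0 CPM. Replicate 6 of the *Neuid* KD group was low for *Hes6*, at 25.4 CPM against 30.2 to 33.0 CPM, and without it the log2 fold change of *Hes6* was 0.46.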

How the results depend on the processing

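Under the 25 alternatives other than the fold threshold, the 7 called members other than *Hes1* kept direction and call, with log2 fold changes of 1.37 to 1.90 for *Hes5*, 1.19 to 1.48 for *Notch3* and 0.35 to 0.70 over the other 5. *Hes1* kept its direction but was not called in 5 of them: in libraries of at least 100 CPM on chemosensory genes (0.56, adjusted p = 0.0609), in those under it (0.45, adjusted p = 0.131), after thinning to the smallest library (0.35, adjusted p = 0.295), and without *Neuid* KD replicate 4 or 6, its adjusted p ranging from 0.00112 to 0.295 over all alternatives. The cause was not tested, though the split sets and the thinned counts hold fewer libraries or reads. *Jag1*, never called, had positive values of 0.03 (under 100 CPM), 0.01 (without control replicate 1) and 0.01 (without control replicate 3). With a log2 fold change beyond 0.5 required, 5 members were higher (*Notch2*, *Hes6* and *Hey1* no longer counted), 3 other pathway genes higher and 1 lower, and 477 of all genes higher and 155 lower.

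The labels do not say whether same-numbered libraries belong together. Such libraries correlated at -0.66 to 0.80 after removing group means, and 3 of 6 matched their own number best. Replicate 1 (r = 0.80) had the highest chemosensory sum of both groups, 629 and 583 CPM, and replicate 3 (r = 0.75) the lowest, 24.8 and 25.5 CPM. These correlations therefore cannot separate a pairing from background. With the replicate block, 8 members, 11 other pathway genes and 1299 of all genes were higher, and 0, 3 and 542 lower. With the replicate block and the background covariate, 16 other pathway genes were higher and 981 of all genes lower.

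Other pathway genes called lower were 6 with upper quartile scaling, 1 in libraries of at least 100 CPM and 5 in those under it. All genes called higher were 711 without a filter and 651 in libraries of at least 100 CPM (1110 in those under it). All genes called lower were 1259 with upper quartile scaling, 1004 with DESeq2, 947 with 2 RUVs factors, 229 without a filter, 781 at a mean of at least 1 CPM, 989 with the background covariate, and 205 and 799 in libraries of at least and under 100 CPM. Leaving out each library gave 822 (without *Neuid* KD replicate 2) to 1208 genes higher and 355 to 780 lower (the latter without *Neuid* KD replicate 1), with 7 or 8 members higher. The median log2 fold change of all genes was -0.03 in the reported fit, -0.14 without a filter and -0.09 with upper quartile scaling. *Dll3* had the largest standard error of the members.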
